A study of Mus musculus with 22 samples.

Results

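Cholesterol and fatty acid synthesis genes were followed in mouse dorsal root ganglia (DRG), the clusters of sensory neuron cell bodies beside the spinal cord, and in cultures of DRG neurons. The members are 30 genes named by symbol, each matched to 1 of the 55487 Ensembl genes that the count tables list. They comprise 7 genes of the mevalonate pathway, 3 genes from squalene to lanosterol, 8 genes from lanosterol to cholesterol, 4 regulators and 8 fatty acid genes. The series asked how periostin (POSTN), a secreted matrix protein encoded by Postn, acts in psoriasis. Both genotypes were used throughout, wild type (WT) and Postn knock out (KO), as the labels call them. T10-L5 ganglia were taken after treatment of the mice for 5 days with vehicle (3 libraries per genotype) or with imiquimod, labelled IMQ (2 libraries per genotype). Imiquimod activates TLR7, and on mouse skin it serves as a model of psoriasis. Cultures of DRG neurons of both genotypes were kept for 72 h without or with recombinant POSTN (rPOSTN), with 3 libraries in each of these 4 groups. The labels give neither age, strain nor the design of the knockout allele.

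Cholesterol is built from acetyl-CoA through mevalonate, isoprenoids, squalene and lanosterol. Fatty acids are built from cytosolic acetyl-CoA and then elongated and desaturated. SREBP transcription factors, encoded by Srebf1 and Srebf2, switch on the genes of both routes when sterols in the endoplasmic reticulum are low, and INSIG proteins hold the SREBPs there. Myelin is rich in cholesterol and long fatty acids, and Schwann cells make most of the cholesterol of their myelin themselves, so the pathway is known in peripheral nerve for its part in myelination.

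Promoter windows are shown because SREBPs act on genes of both routes, as given above. Many of the members were lower in cultures than in ganglia, as described below, and a part of shared regulation in this was not tested. RefSeq windows on GRCm38.p6, from 250 bases before to 50 bases after a gene's start, were found for 23 of the 30 genes (28 windows). Both strands were searched for the sterol regulatory element letters TCACNCCAC, the CCAAT box letters CCAAT and the GC box letters GGGCGG. Hmgcs1 (chr13:119690101-119690400, plus strand), Mvk (chr5:114444019-114444318, plus strand) and Nsdhl (chrX:72918271-72918570, plus strand) are the members with the most CCAAT matches, and Fads2 (chr19:10101454-10101753, minus strand) is a member with none. Each sequence runs 5′ to 3′ along the gene's strand, and capitals mark CCAAT or its reverse complement ATTGG and, in Hmgcs1, the sterol regulatory element letters.
Hmgcs1: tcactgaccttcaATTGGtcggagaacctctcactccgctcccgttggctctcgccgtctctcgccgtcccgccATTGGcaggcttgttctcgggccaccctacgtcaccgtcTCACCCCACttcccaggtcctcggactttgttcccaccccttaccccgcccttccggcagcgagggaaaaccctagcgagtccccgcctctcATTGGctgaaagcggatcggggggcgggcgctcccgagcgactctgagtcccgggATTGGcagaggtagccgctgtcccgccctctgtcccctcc
Mvk: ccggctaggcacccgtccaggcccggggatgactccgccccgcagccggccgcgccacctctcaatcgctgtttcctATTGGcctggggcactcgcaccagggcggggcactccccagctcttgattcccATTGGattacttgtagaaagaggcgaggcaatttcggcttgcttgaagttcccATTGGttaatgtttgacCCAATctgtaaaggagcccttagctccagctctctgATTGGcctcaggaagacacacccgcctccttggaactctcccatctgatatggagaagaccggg
Nsdhl: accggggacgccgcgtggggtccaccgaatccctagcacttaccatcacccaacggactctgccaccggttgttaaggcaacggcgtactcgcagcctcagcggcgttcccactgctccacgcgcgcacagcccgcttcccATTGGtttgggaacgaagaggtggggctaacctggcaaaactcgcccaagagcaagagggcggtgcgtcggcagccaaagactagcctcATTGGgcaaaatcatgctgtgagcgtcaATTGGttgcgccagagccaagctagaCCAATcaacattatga
Fads2: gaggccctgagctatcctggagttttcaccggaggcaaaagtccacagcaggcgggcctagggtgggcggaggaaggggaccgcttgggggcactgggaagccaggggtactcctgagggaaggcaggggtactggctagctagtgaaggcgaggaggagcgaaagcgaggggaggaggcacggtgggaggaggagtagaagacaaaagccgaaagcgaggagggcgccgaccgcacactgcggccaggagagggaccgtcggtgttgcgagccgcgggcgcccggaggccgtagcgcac

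Hmgcs1 held 4 CCAAT matches and 1 match to the sterol regulatory element letters, which began 137 bases before the start site. Mvk held 5 CCAAT matches, Nsdhl held 4 and Fads2 held 0. Acat2, Elovl6 and Acaca, which were lower in culture as described below, held 0 as well. Whether the matches go with a gene's direction in culture was not tested. CCAAT was found in 20 of the 28 windows (71.4%) and in 37.4% of all 32851 windows of the table. The GC box letters were in 21 of the 28 (75%) and in 35.7% of all windows. The sterol regulatory element letters were in 1 of the 28 (3.57%) and in 1.24% of all windows. These are matches of letters in a short window, and none of the measurements bears on binding there.

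Libraries held 16.7 to 24.1 M counts (M, mega). Levels are counts per M counts (CPM) on library sizes scaled by TMM over all 22 libraries. A gene was called at an edgeR adjusted p below 0.05, with adjustment over all genes tested. Postn was at 21.9 to 28 CPM in WT vehicle ganglia and at 3.63 to 5.36 CPM in KO vehicle ganglia. Of the ganglion libraries, WT IMQ 2 was the one with almost no Xist (0.188 CPM), an RNA made from the inactive X. It held 149 CPM over 4 Y-linked genes, where the vehicle libraries held 0, so this differs within the WT IMQ comparison. WT cultures 1 and 2 of both treatments also had almost no Xist (0.422 to 0.804 CPM), WT culture 3 had 1143 and 1204 CPM, and the KO cultures had both Xist and Y-linked RNA. In the first vehicle library of each genotype, longer genes tended to lower levels than in the other 2, and its values are described with the treatment results.

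Levels of the members spanned a wide range. In WT vehicle ganglia, Scd2, a stearoyl-CoA desaturase, had the highest mean level per length of exon at 392 CPM per kb. Hmgcs1, the cytosolic HMG-CoA synthase, followed at 214 CPM per kb, then Scd1, a second desaturase, at 162, and Acly, the enzyme that makes cytosolic acetyl-CoA from citrate, at 122. The lowest were Srebf1 at 7.79 CPM per kb and Fdps, farnesyl diphosphate synthase, at 2.82 CPM per kb. Fdps shares 1124 exon bases with another annotated gene on its strand, Gm43738, so its level is uncertain. In all, 10 of the 30 members share exon bases with another gene, 7 of them on the opposite strand. These 7 are Hmgcs1 (557 bases, with Gm48342), Idi1, Fdft1, Lss, Cyp51, Srebf1 (109 bases, with Rai1) and Elovl6.

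**Figure D1:**
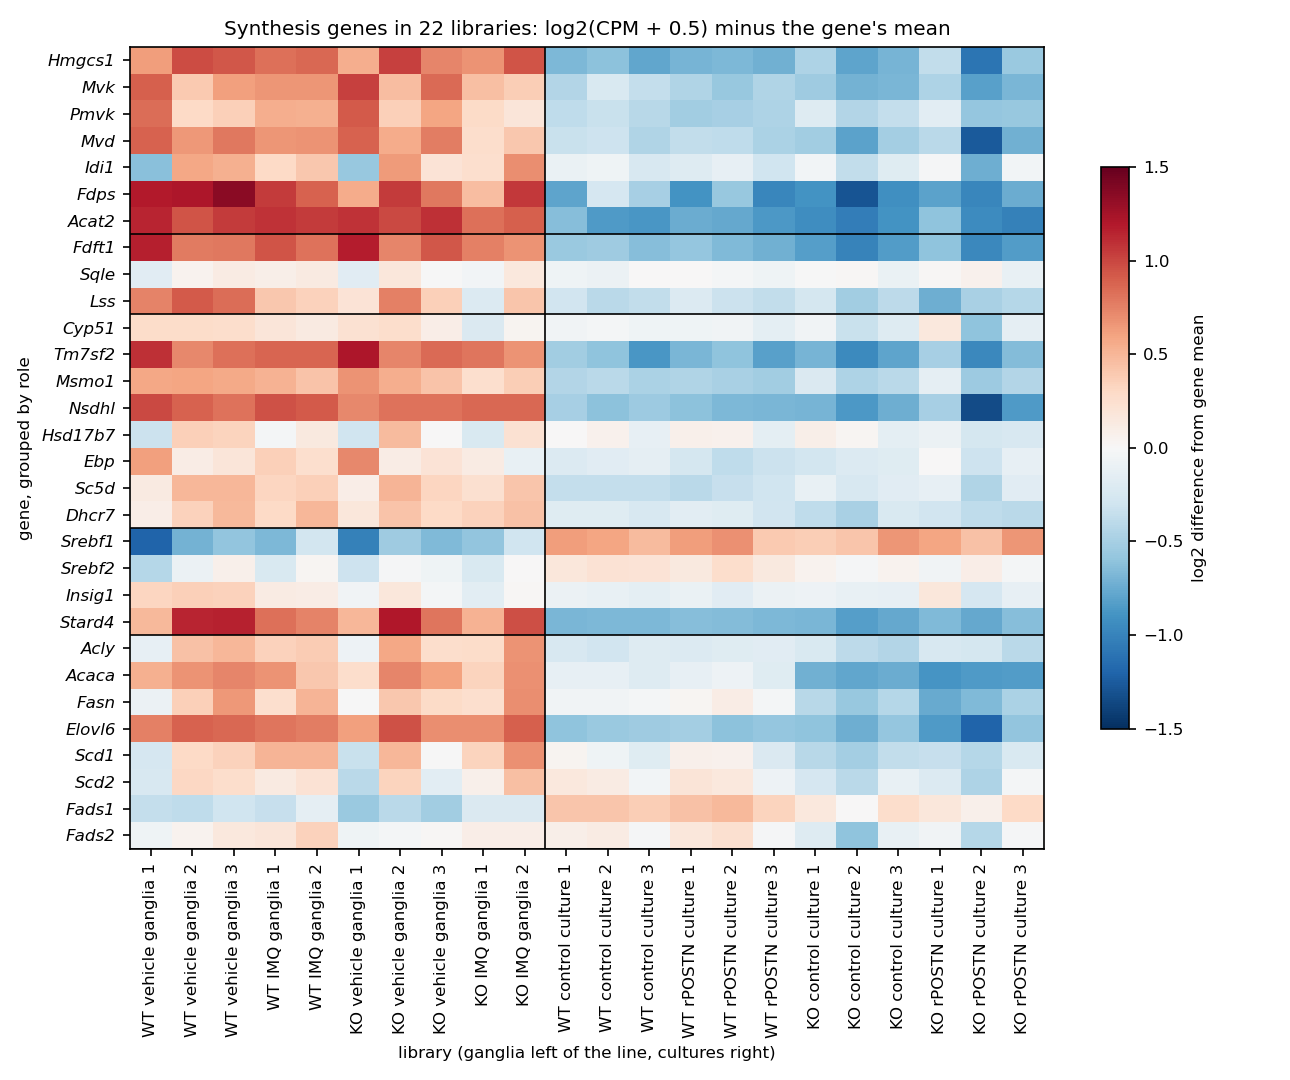
Levels of the 30 genes in the 22 libraries as log2(CPM + 0.5) minus each gene's mean over libraries, with genes in rows by role and libraries in columns. Ganglia lie left of the vertical line and cultures right of it. Most sterol genes are red in ganglia and blue in cultures, while Srebf1 and Fads1 show the reverse.

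Most of these genes had lower levels in cultures than in ganglia. In WT, 24 of the 30 genes differed between control cultures and vehicle ganglia, 21 lower and 3 higher in culture, against 33.6% of all genes called lower, 33.9% called higher and 67.5% called in either direction. In KO, 23 differed, 21 lower and 2 higher, against 33.3% of all genes lower, 35.3% higher and 68.6% in either direction. With about 2 in 3 of all genes called, being called sets a gene apart from few others, while 21 of the 30 were called lower in each genotype. The median log2 difference of the 30 genes was −0.64 in WT and −0.69 in KO, beside 0.01 and 0.05 over all genes tested. Of the 30 genes, 20 were lower in both genotypes, 2 higher in both, 5 were called in neither and 3 in one only. None of the 30 was called in opposite directions. The same counts were not taken over all genes, so they do not set the members apart. Tissue, dissociation, days in medium and deposited table differ together here, so these cannot be told apart. Y-linked RNA differed as well, at 0 CPM in the vehicle ganglia, 169 and 178 CPM in WT control cultures 1 and 2, and 44.1 to 94.5 CPM in KO control cultures. In bulk RNA fewer cells of a type cannot be told apart from less RNA per cell.

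Of the 7 genes of the mevalonate pathway 6 were lower in culture in each genotype, with medians of −1.15 (WT) and −1.43 (KO). Hmgcs1 stood at 843, 1070 and 1040 CPM in WT vehicle ganglia and at 341, 355 and 318 CPM in WT control cultures. In KO it stood at 792, 1109 and 902 CPM in ganglia and at 395, 313 and 335 CPM in cultures. The 2 sets of libraries did not overlap in either genotype, and Hmgcs1 fell by 1.54 on the log2 scale in WT (SE 0.16, adjusted p = 2.21e-08) and by 1.43 in KO (SE 0.15, adjusted p = 6.23e-08).

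Acat2, the cytosolic thiolase that joins acetyl-CoA units, stood at 189, 164 and 178 CPM in WT vehicle ganglia and at 54.6, 47.1 and 46.4 CPM in WT control cultures. It fell by 1.84 in WT (SE 0.10, adjusted p = 2.68e-12) and by 2.02 in KO (SE 0.10, adjusted p = 6.38e-13), where ganglia held 171 to 184 CPM and cultures 41.5 to 45.9 CPM. The kinases Mvk and Pmvk, which phosphorylate mevalonate in turn, fell by 1.01 and 0.90 in WT and by 1.45 and 0.98 in KO. Mvd, the decarboxylase that makes isopentenyl diphosphate, fell from 70.5 ± 5.94 to 31.7 ± 1.73 CPM in WT (SD, n = 3 each) and from 68.7 ± 7.84 to 26.7 ± 2.98 CPM in KO (SD, n = 3 each). Fdps had the largest fitted fall of the members, 1.90 in WT and 2.08 in KO, at levels of 11.9 ± 0.777 CPM in WT vehicle ganglia and 3.16 ± 0.686 CPM in WT control cultures (SD, n = 3 each).

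Idi1, the isomerase between isopentenyl and dimethylallyl diphosphate, was the one mevalonate gene not called. It stood at 42.3, 97.7 and 94.6 CPM in WT vehicle ganglia and at 61, 62.3 and 55.2 CPM in WT control cultures. The first ganglion library lay below the cultures and the other two above them. The log2 difference was −0.40 ± 0.27 (SE, adjusted p = 0.204) in WT and −0.37 ± 0.27 (SE, adjusted p = 0.233) in KO. Without the first vehicle library it was −0.69 in WT and −0.64 in KO, with adjusted p of 0.0166 and 0.041.

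From squalene to lanosterol, 2 of 3 genes fell in each genotype. Fdft1, squalene synthase, stood at 549, 421 and 426 CPM in WT vehicle ganglia and at 167, 169 and 158 CPM in WT control cultures, without overlap. It was 2.82-fold lower in WT (adjusted p = 9.88e-10) and 3.61-fold lower in KO (adjusted p = 3.82e-11). Fdft1 shares 774 exon bases with Ctsb on the opposite strand. Lss, lanosterol synthase, fell by 1.19 in WT (SE 0.14) and by 0.86 in KO (SE 0.14). Sqle, squalene epoxidase and a rate-controlling enzyme of the sterol branch, acts between them in the pathway and did not pass the test. It held 264, 309 and 323 CPM in WT vehicle ganglia and 285, 280 and 299 CPM in WT control cultures, so the libraries overlapped. Its log2 difference was −0.05 in WT (95% interval −0.26 to 0.15) and −0.03 in KO (95% interval −0.23 to 0.17).

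From lanosterol to cholesterol, 7 of 8 genes fell in each genotype, with medians of −0.63 (WT) and −0.64 (KO). Nsdhl, a sterol dehydrogenase that takes part in removing the C4 methyl groups, stood at 133, 124 and 118 CPM in WT vehicle ganglia and at 47.3, 43.4 and 45.8 CPM in WT control cultures. It fell by 1.46 in WT (SE 0.13, adjusted p = 5.17e-09) and by 1.55 in KO (SE 0.13, adjusted p = 1.99e-09). Tm7sf2, a sterol reductase, fell by 1.57 and 1.78, and shares 532 exon bases with Vps51 on its own strand. Msmo1, the C4 methyl oxidase, fell from 371 ± 2.51 to 183 ± 4.29 CPM in WT (SD, n = 3 each), by 1.02 on the log2 scale, and by 0.91 in KO.

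The other enzymes of this branch moved less. Sc5d, a sterol desaturase, fell by 0.74 and 0.50 in WT and KO. Dhcr7, which makes cholesterol from 7-dehydrocholesterol, fell by 0.52 and 0.67. Ebp, a sterol isomerase, fell by 0.49 in WT, with an adjusted p of 0.00479, and by 0.60 in KO. Without WT vehicle 1 the Ebp difference in WT was −0.32, with an adjusted p of 0.0508. Cyp51, the lanosterol demethylase, fell by 0.32 in WT and 0.39 in KO, and its WT call was lost without any 1 of the 6 libraries compared (adjusted p 0.0552 to 0.0749). Without KO control culture 2 its KO call was lost as well (adjusted p = 0.0568). Hsd17b7, a ketosteroid reductase, was not called, with −0.17 ± 0.17 in WT and −0.11 ± 0.17 in KO (SE).

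The regulators went in both directions. Srebf1 stood at 33.3, 47 and 51.3 CPM in WT vehicle ganglia and at 120, 117 and 108 CPM in WT control cultures, so every culture library was above every ganglion library. It rose by 1.39 in WT (SE 0.16, adjusted p = 1.12e-07) and by 1.22 in KO (SE 0.15, adjusted p = 6.37e-07), the largest rise among the members. Srebf2 rose by 0.33 in WT, with an adjusted p of 0.0145, and was 0.16 ± 0.11 higher in KO, which was not called (SE, adjusted p = 0.217). Without WT vehicle 1 the Srebf2 difference in WT was 0.20, with an adjusted p of 0.107. Counts do not separate the SREBP1a and SREBP1c transcripts that Srebf1 gives.

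Insig1, which retains the SREBPs and is itself an SREBP target, stood at 153, 156 and 156 CPM in WT vehicle ganglia and at 115, 113 and 111 CPM in WT control cultures. It fell by 0.46 in WT (SE 0.10, adjusted p = 0.00031). In KO its ganglia were already at 117, 138 and 120 CPM, and the difference of −0.14 ± 0.10 was not called (SE, adjusted p = 0.217). Whether WT and KO differ in this step was not tested. Stard4, a sterol carrier protein, stood at 101, 159 and 160 CPM in WT vehicle ganglia and at 44.6, 45 and 45 CPM in WT control cultures. It fell by 1.64 in WT (SE 0.16, adjusted p = 1.89e-08) and by 1.63 in KO (SE 0.16, adjusted p = 2.01e-08).

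**Figure D2:**
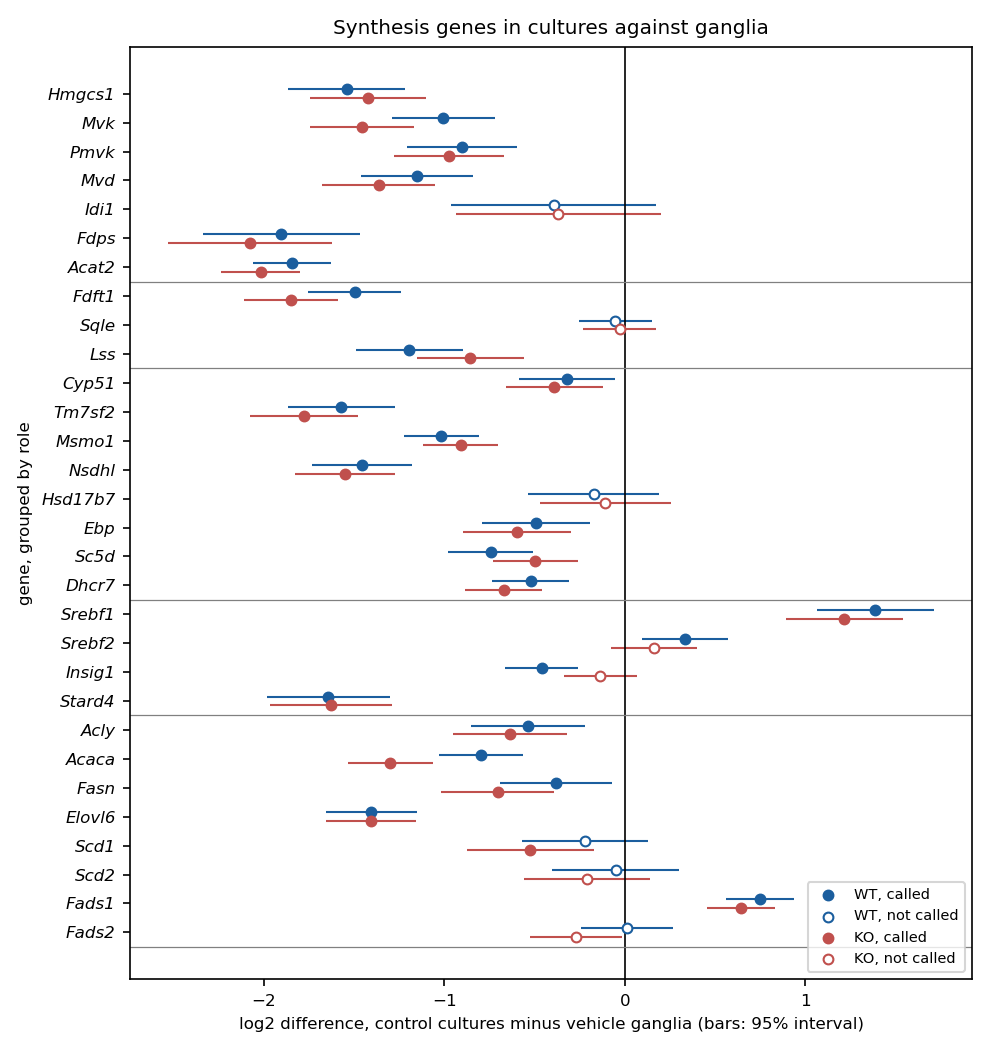
Log2 difference of each gene between control cultures and vehicle ganglia, WT in blue and KO in red, with 95% intervals and filled points for genes called at adjusted p below 0.05. Points left of 0 are lower in culture; in each genotype 21 genes lie filled on that side, while Srebf1 and Fads1 lie on the right.

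The fatty acid genes were less uniform than the sterol enzymes, with 4 of 8 lower in WT and 5 of 8 in KO, and Fads1 higher in both. Elovl6, the elongase of C16 fatty acids, stood at 148, 162 and 160 CPM in WT vehicle ganglia and at 57.5, 59.6 and 60.5 CPM in WT control cultures. It fell by 1.40 in WT (SE 0.12, adjusted p = 1.91e-09) and by 1.41 in KO (SE 0.12, adjusted p = 1.73e-09). Acaca, acetyl-CoA carboxylase, which makes the malonyl-CoA used by fatty acid synthase, fell from 137 ± 9.51 to 78.8 ± 2.18 CPM in WT and from 127 ± 20.6 to 51.8 ± 0.959 CPM in KO (SD, n = 3 each). Acly fell by 0.54 and 0.64 on the log2 scale. Fasn, the fatty acid synthase, fell by 0.38 in WT and 0.71 in KO, and its WT call was lost without 5 of the 6 libraries, WT vehicle 1 being the exception. Its WT difference was closest to 0, at −0.20, without WT vehicle 3 (adjusted p = 0.245).

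Of the 4 desaturases 1 rose. Fads1, the delta-5 desaturase, stood at 191, 187 and 197 CPM in WT vehicle ganglia and at 327, 325 and 315 CPM in WT control cultures. It rose by 0.75 in WT (SE 0.09, adjusted p = 3.29e-07) and by 0.64 in KO (SE 0.09, adjusted p = 2.52e-06). Fads2, the delta-6 desaturase, was at 0.01 in WT (95% interval −0.24 to 0.27) and at −0.27 ± 0.12 in KO (SE, adjusted p = 0.0559). Scd2 stood at 1650, 2425 and 2344 CPM in WT vehicle ganglia and at 2170, 2127 and 1893 CPM in WT control cultures, with overlapping libraries and a log2 difference of −0.05 (95% interval −0.40 to 0.30). Scd1 was not called in WT (−0.22 ± 0.17, SE) and fell by 0.52 in KO (SE 0.17, adjusted p = 0.00946), a call lost without KO vehicle 2 (adjusted p = 0.123). Without WT vehicle 1 the Scd1 difference in WT was −0.39 and was called (adjusted p = 0.0433).

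Genes around these routes were counted as well, beside all genes tested, of which 33.6% were called lower and 33.9% higher in WT cultures and 33.3% and 35.3% in KO cultures. A count near these shares sets no list apart. Of 16 genes of SREBP processing and sterol uptake and transport, 10 rose and 2 fell in WT cultures and 9 rose and 2 fell in KO cultures. Among them Scarb1, the receptor that takes up cholesteryl esters from HDL, rose by 1.23 and 1.62, and Soat1, which esterifies cholesterol, by 1.49 and 1.32. Of 12 LXR-linked and efflux genes, 4 rose and 7 fell in WT and 3 rose and 7 fell in KO. Abca1, the cholesterol exporter, rose from 91 ± 17.3 to 578 ± 27.9 CPM in WT and from 86 ± 13.5 to 506 ± 23.8 CPM in KO (SD, n = 3 each). Mylip, an LXR target that degrades lipoprotein receptors, rose by 2.44 and 2.35, while Abca7, another lipid transporter, fell by 1.87 and 2.12.

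Of 25 fatty acid elongation and activation genes, 14 fell and 3 rose in WT and 15 fell and 4 rose in KO. Thrsp, a lipogenic protein, fell by 2.91 and 2.65, and Fads3 rose by 1.12 and 1.24. Of 10 isoprenoid branch genes tested, 2 rose and 2 fell in WT and 1 rose and 3 fell in KO. Of 13 fatty acid oxidation genes, 1 rose in each genotype and 7 (WT) or 6 (KO) fell, among them Acadvl by 1.93 and 1.96. Of 12 genes of sphingolipid and myelin lipid synthesis, 3 rose and 5 fell in WT and 5 rose and 5 fell in KO. Fa2h, which hydroxylates the fatty acids of myelin lipids, fell by 6.01 and 5.22, and Ugt8a, which makes galactosylceramide, by 3.41 and 2.75.

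Markers of the cell types that the samples could hold moved with this comparison. Of 17 myelin genes tested, 12 were lower and 3 higher in WT cultures (median −2.13), and 12 lower and 4 higher in KO cultures (median −1.42). Mbp, which encodes myelin basic protein, was at 2258 to 3610 CPM in WT vehicle ganglia, at 1439 to 1840 CPM in KO vehicle ganglia and at 449 to 959 CPM in the cultures. Of 16 neuron genes, 14 were lower in WT cultures (median −1.52) and 15 in KO cultures (median −1.78), although the cultures are labelled as neurons. Snap25, a synaptic protein gene, was at 1220 to 1304 CPM in WT vehicle ganglia and at 378 to 426 CPM in WT control cultures. Summed, the 16 neuron genes ran from 16938 to 18878 CPM in WT vehicle ganglia and from 6854 to 7079 CPM in WT control cultures, and from 18139 to 20020 and from 6340 to 6859 CPM in KO. The 18 myelin genes summed to 11634 to 17437 CPM in WT vehicle ganglia and 3105 to 3935 CPM in WT control cultures, and to 7982 to 9329 and 2894 to 4113 CPM in KO. Of 12 macrophage genes 10 were lower in WT cultures and 11 in KO cultures, with 1 higher in each. Satellite glia genes went both ways (4 of 9 higher and 5 lower in each genotype), 3 of 6 endothelial genes were higher and 1 lower in each, and 5 of 5 erythroid genes were lower. The part of these shifts in cell type markers in the fall of the synthesis genes was not tested.

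Summed over the 18 sterol enzymes, the level was 3534 ± 109 CPM in WT vehicle ganglia and 1764 ± 36.8 CPM in WT control cultures (SD, n = 3 each). In KO it was 3441 ± 171 CPM in vehicle ganglia and 1722 ± 113 CPM in control cultures (SD, n = 3 each). The 8 fatty acid genes summed to 4557 ± 833 CPM in WT vehicle ganglia and 4069 ± 202 CPM in WT control cultures, and to 4205 ± 963 and 3274 ± 246 CPM in KO (SD, n = 3 each). The summed sterol enzymes of the ganglia thus lay clear of those of the cultures, while the summed fatty acid genes overlapped in both genotypes.

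**Figure D3:**
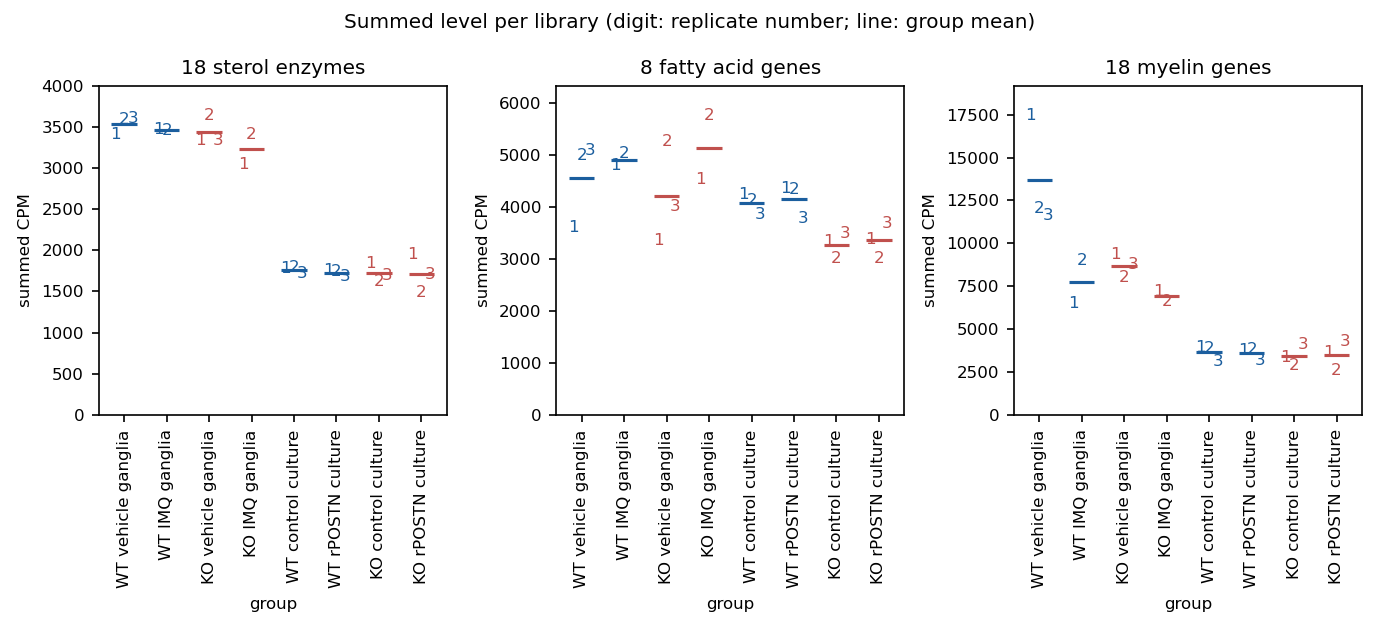
Summed CPM per library of the 18 sterol enzymes (left), the 8 fatty acid genes (middle) and 18 myelin genes (right) in the 8 groups, with WT in blue and KO in red. Each digit is a library's replicate number and each line a group mean. The sterol enzymes lie between 3050 and 3638 CPM in all 10 ganglion libraries, while the myelin sum is lower in every IMQ and KO ganglion library than in any WT vehicle library.

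The comparisons of IMQ with vehicle, which ask what treatment of the mouse does in its ganglia, share the vehicle libraries with those of cultures and of genotype. No synthesis gene was called in WT ganglia (0 of 30, against 1.3% of all genes) or in KO ganglia (0 of 30, against 1.1% of all genes) by edgeR, nor by DESeq2. The median log2 difference of the 30 genes was −0.0029 in WT and −0.018 in KO, beside −0.0081 and −0.0054 over all genes. The 95% interval of the difference lay within 1 log2 unit of 0 for 30 of 30 genes in WT and 29 of 30 in KO, and within 0.5 for 19 and 13. At an unadjusted p under 0.05 there was 1 gene in WT and there were 4 in KO, beside 7.27% and 8.39% of all genes.

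Hmgcs1 stood at 843, 1070 and 1040 CPM with vehicle and at 969 and 985 CPM with IMQ in WT, and at 792, 1109 and 902 CPM with vehicle and 867 and 1050 CPM with IMQ in KO. The IMQ libraries lay inside the vehicle range in both genotypes. Lss, with the smallest p in WT, stood at 93.9, 106 and 100 CPM with vehicle and at 74.4 and 71.5 CPM with IMQ, a difference of −0.46 ± 0.19 (SE, adjusted p = 0.621). These libraries did not overlap, yet the difference was not called. Mvd, with the smallest p in KO, stood at 75.7, 60.3 and 70.2 CPM with vehicle and at 49.3 and 54.2 CPM with IMQ, a difference of −0.42 ± 0.13 (SE, adjusted p = 0.332). The other 3 KO genes with an unadjusted p under 0.05 were Cyp51 (−0.29), Msmo1 (−0.25) and Fads1 (0.26).

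Among the fatty acid genes, Scd1 stood at 600, 876 and 908 CPM with vehicle and at 1012 and 1015 CPM with IMQ in WT. The IMQ libraries were above all 3 vehicle libraries, and the difference of 0.35 ± 0.24 was not called (SE, adjusted p = 1). In KO Scd1 was at 564, 1008 and 708 CPM with vehicle and at 898 and 1144 CPM with IMQ, which overlapped (0.41 ± 0.24, SE, adjusted p = 0.635). Srebf1 was at 33.3, 47 and 51.3 CPM with vehicle and 48.5 and 64.1 CPM with IMQ in WT, with a difference of 0.36 ± 0.20 (SE, adjusted p = 0.922). Of the 8 fatty acid genes, 6 lay above 0 in WT (median 0.06) and 7 in KO (median 0.22), and none was called. Adipocyte genes, which mark a tissue that makes much fat, were tested for 9 of 12 list genes and had medians of 1.57 in WT, with 1 higher, and 1.54 in KO, with 0 called. Their summed level stayed low, at 24.3 to 34 CPM with vehicle and 35 to 47.3 CPM with IMQ in WT and at 15.6 to 24.3 and 28.7 to 40.7 CPM in KO, and 0 to 3 of the 12 genes were at 0 in a ganglion library. Adipoq, a gene that defines adipocytes, did not exceed 2.63 CPM in any ganglion library. Of 12 macrophage genes 9 rose with IMQ in WT and 10 in KO, from a summed 146 to 176 CPM to 609 to 670 CPM in WT and from 152 to 181 CPM to 526 to 600 CPM in KO. The part of either cell type in the fatty acid values was not tested.

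Myelin genes lay mostly below 0 in the same libraries. With IMQ, 16 of 17 myelin genes tested were below 0 in WT, with a median of −0.80, and 14 of 17 in KO, with a median of −0.29. The synthesis genes split 15 above and 15 below 0 in each genotype, and 48.2% (WT) and 49.1% (KO) of all genes lay above 0. In WT the summed myelin level was 11634 to 17437 CPM with vehicle, highest in WT vehicle 1, and 6486 to 8986 CPM with IMQ. Of the myelin genes only Drp2, a dystroglycan complex gene of myelinating Schwann cells, was called, in WT. It stood at 701, 645 and 549 CPM with vehicle and at 199 and 247 CPM with IMQ in WT, and fell by 1.51 (SE 0.17, adjusted p = 0.00163). Mbp stood at 3610, 2362 and 2258 CPM with vehicle and at 1187 and 1577 CPM with IMQ in WT, without overlap, and it was 1.99-fold lower with IMQ, which was not called (95% interval of the log2 difference −1.51 to −0.48, adjusted p = 0.0987). Across the same WT libraries the summed sterol enzymes were at 3534 ± 109 CPM with vehicle (SD, n = 3) and at 3466 ± 11.5 CPM with IMQ (SD, n = 2).

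**Figure D4:**
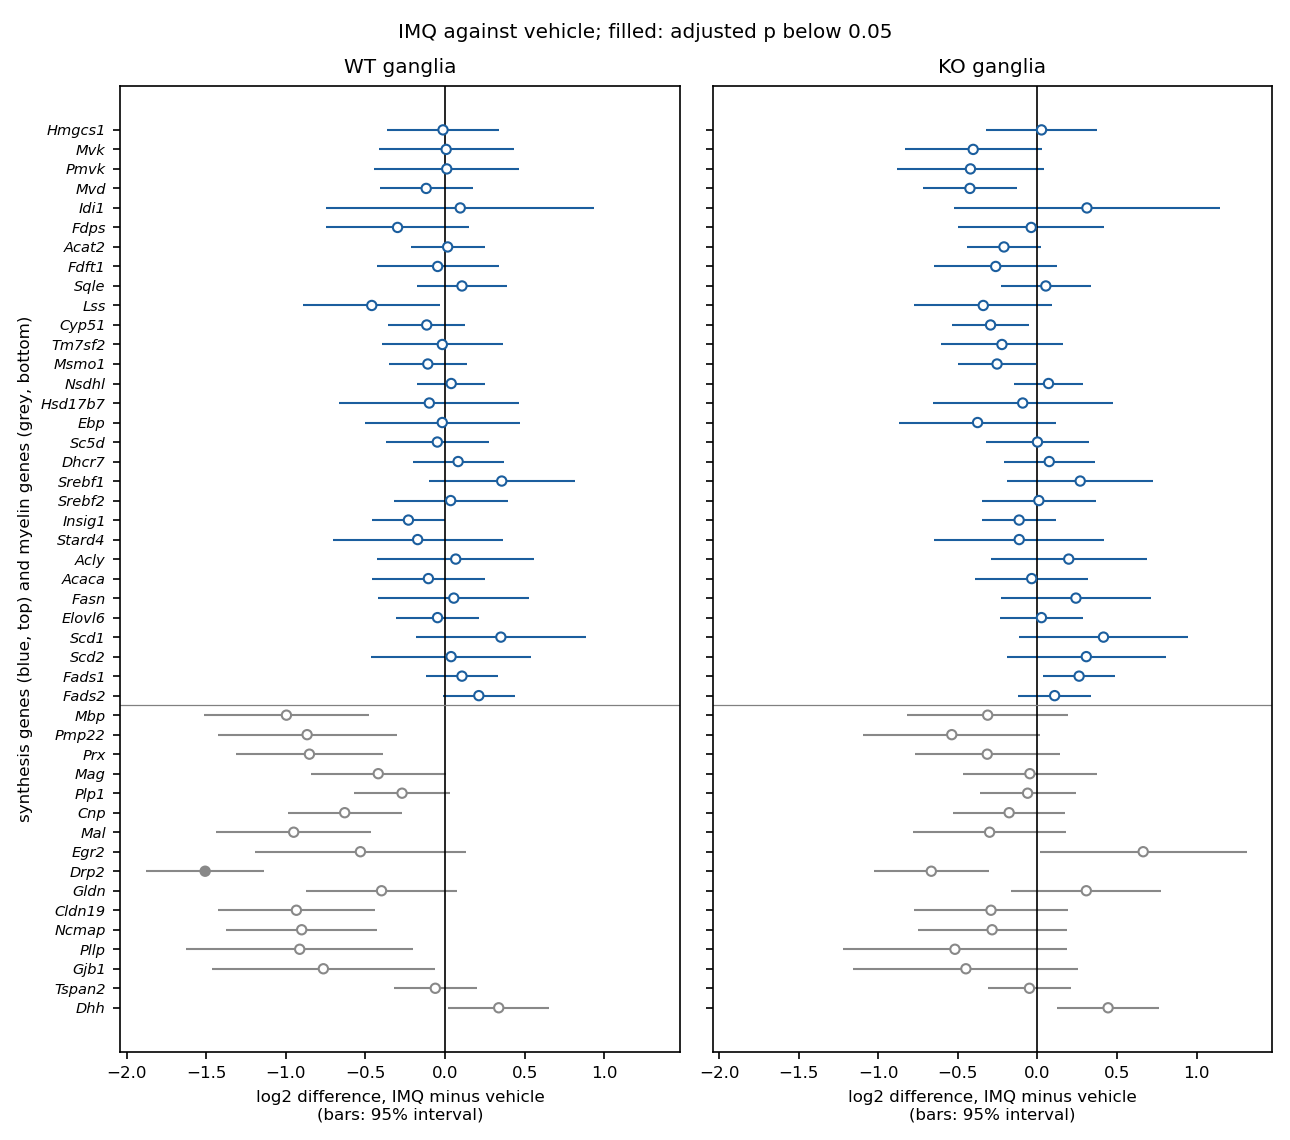
Log2 difference between IMQ and vehicle ganglia in WT (left) and KO (right) for the 30 synthesis genes (blue, top) and 16 of the 17 myelin genes tested (grey, bottom, 1 not shown), with 95% intervals. Filled points were called at adjusted p below 0.05, which holds for Drp2 in WT alone. The blue points scatter around 0, and in WT 15 of the 16 grey points shown lie left of it.

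The IMQ effect did not differ detectably between genotypes for any synthesis gene. The interaction called 0 of 30 members and 0% of all genes (DESeq2 called 0 members too). An unadjusted p under 0.05 was reached by 0 members and by 2.12% of all genes. The 95% interval lay within 1 log2 unit of 0 for 26 of the 30, so larger differences of effect were not bounded for 4 of them. The range ran from −0.43 for Pmvk to 0.27 for Scd2.

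KO against WT compared the genotypes within each treatment. With strain not given, other differences between the lines cannot be told apart from the knockout. In vehicle ganglia 0 of 30 members were called, against 0.0116% of all genes (DESeq2 called 0). An unadjusted p under 0.05 was reached by 2 members and by 3.08% of all genes. The median was −0.06, beside 0.02 over all genes, and 8 of 30 members lay above 0, beside 54.4% of all genes. Leaving out 1 library moved this median between −0.14, without KO vehicle 2, and −0.014, without KO vehicle 1. Insig1 stood at 153, 156 and 156 CPM in WT and at 117, 138 and 120 CPM in KO, without overlap, with a difference of −0.31 ± 0.09 (SE, adjusted p = 1). Fdps was at 11.3, 11.5 and 12.8 CPM in WT and at 7.13, 10.2 and 8.42 CPM in KO, a difference of −0.46 ± 0.18 (SE, adjusted p = 1). In IMQ ganglia 0 of 30 were called, against 0.00581% of all genes (DESeq2 called 0). The only member with an unadjusted p under 0.05, beside 1.85% of all genes, was Mvd at −0.34 ± 0.14 (SE, adjusted p = 0.997). In KO vehicle ganglia 16 of 17 myelin genes were below 0 relative to WT, with a median of −0.56 and none called.

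Of the genes around the pathway, 1 was called in the ganglia. Pdk4, a kinase that inhibits pyruvate dehydrogenase and so lowers the acetyl-CoA made from glucose, was at 17.8 to 24.5 CPM in WT vehicle ganglia and at 7.11 to 8.54 CPM in KO vehicle ganglia, a log2 difference of −1.49 ± 0.14 (SE, adjusted p = 0.0147). With IMQ it fell by 1.29 in WT (SE 0.16, adjusted p = 0.00396) and was 0.66 ± 0.16 higher in KO, which was not called (SE, adjusted p = 0.14). The difference of these effects, 1.95 ± 0.23, was not called either (SE, adjusted p = 0.155).

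Recombinant POSTN asked for a direct action on cultured neurons. It called 0 of 30 members in WT cultures (0% of all genes) and 0 of 30 in KO cultures (0% of all genes), and the difference of both effects called 0 of 30 (0% of all genes), with 0 by DESeq2 each time. Unadjusted p under 0.05 was reached by Ebp (−0.16 ± 0.06) and Mvk (−0.16 ± 0.07) in WT (SE) and by 0 members in KO and in the interaction. Over all genes the shares were 3.97% in WT, 0.925% in KO and 1.95% in the interaction. Intervals were narrow here: in WT 30 of 30 lay within 1 log2 unit of 0 and 29 within 0.5, and in KO 30 and 26. Hmgcs1 was at 341, 355 and 318 CPM without and 336, 340 and 330 CPM with rPOSTN in WT, and Srebf1 at 120, 117 and 108 CPM without and 120, 125 and 102 CPM with it. Both sets of libraries overlapped. The interaction was least well bounded for Fdps, with 0.59 (95% interval −0.16 to 1.33).

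Within the 4 ganglion groups, no synthesis gene was called as moving with a myelin score. The score is the mean log2 CPM of the myelin list, and its slope was fitted beside the group means over the 10 ganglion libraries. It called 0 of 30 members and 0% of all genes (DESeq2 called 0 members). An unadjusted p under 0.05 was reached by 1 member and by 8.43% of all genes. The member was Stard4, at −1.15 ± 0.43 log2 units per unit of the score (SE, adjusted p = 0.466). The median slope of the 30 genes was −0.34, beside 0.05 over all genes. Of the 30, 21 lay below 0, while 52.5% of all genes lay above 0. The first WT vehicle library had the highest summed myelin level, 17437 CPM against 12022 and 11634 CPM in the other 2. That library also has a trend on gene length. Every member highest in that library among the WT vehicle libraries had a slope above 0, and every member lowest in it a slope below 0. With an offset for gene length, or without that library, the slope called 0 members as well, which does not bear on the median slope. The part of the trend in the slopes was not tested further.

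The first vehicle library of each genotype deviated from the other 2 in many of the same genes. WT vehicle 1 was the lowest of its group for 19 of the 30 members and the highest for 8, and KO vehicle 1 for 21 and 7. A total of 19 members were lowest in both and 6 highest in both. The same shares were not taken over all genes, so these counts do not set the members apart. Members lowest in WT vehicle 1 had a median exon length of 5464 bases, and those highest had 2609 bases. Over the 30 genes the library's deviation from the other 2 correlated with exon length at a Spearman rho of −0.58 in WT and −0.54 in KO, given as a description across genes that share these libraries. Over 10956 expressed genes the level changed by −0.17 and −0.21 log2 units per doubling of length in these 2 libraries, and by −0.04 to 0.13 in the other 4 vehicle libraries. In KO the other 2 differed as well. KO vehicle 3 (−0.04) lay between KO vehicle 1 (−0.21) and KO vehicle 2 (0.13), so no single KO vehicle library stood apart by length. Outside the vehicle groups KO IMQ 2 (0.16) and the first KO rPOSTN culture (−0.14) also had steep trends, and the other libraries lay between −0.02 and 0.05. Pmvk, with short exons, stood at 95, 65.4 and 67.8 CPM in WT, and Stard4 at 101, 159 and 160 CPM, so the 2 genes deviated in opposite directions.

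**Figure D5:**
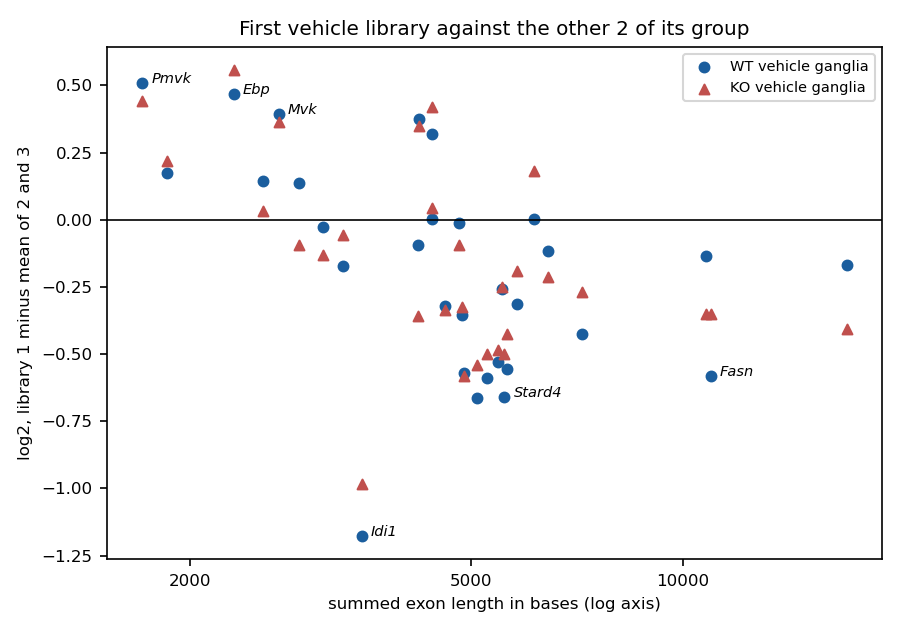
Log2 level of the first vehicle library minus the mean of the other 2 for each of the 30 genes, against summed exon length on a log axis, with WT as blue circles and KO as red triangles. Short genes such as Pmvk lie above 0 and most longer genes below it, with Idi1 lowest in both genotypes.

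With both first vehicle libraries left out, the members' median for IMQ was −0.08 in WT and −0.07 in KO, and 0 members were called in each. An offset for gene length gave medians of 0.01 and −0.05, with 0 called. In the comparison of cultures with ganglia the same offset left 24 members called in each genotype. Of the 24 WT calls 20 held under every alternative run, the exceptions being Cyp51, Ebp, Srebf2 and Fasn, and of the 23 KO calls 21 did, the exceptions being Cyp51 and Scd1.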

How the data were processed

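RNA was sequenced from 10 libraries of whole ganglia and 12 of cultured DRG neurons, poly-A selected and strand-marked by dUTP, per the labels' protocols. The authors deposited raw read counts per Ensembl gene in 3 tables, for ganglia, WT cultures and KO cultures. Bowtie2 2.2.3, HISAT2 2.1.0, TopHat2 and the build GRCm39 appear in the submitters' processing notes without a role. Which tool counted the reads, with what strand setting and annotation, is not given in the sources used here.

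Symbols and exon lengths came from GENCODE M21 (another build, so no coordinates were taken from it) and promoter windows from RefSeq. Symbols were found for 55141 IDs. Counts were tested with edgeR 4.0.16 (quasi-likelihood, robust, two-sided) after filterByExpr and TMM in R 4.3.3, with p-values adjusted by Benjamini-Hochberg over every gene tested in a comparison and calls below 0.05. The 4 ganglion groups shared 1 fit. WT and KO cultures were fitted apart for rPOSTN, all 12 together for its interaction, and vehicle ganglia with cultures in a fit over all groups. No KO culture was compared with a WT culture, since table and genotype coincide there. SE is the log2 difference over the square root of its F statistic. The scripts were tested on simulated data. There were 10 comparisons and the slope on the myelin score.

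Total counts were 16.7 to 24.1 M per library, and replicates differed by more than counting error (chi-square per degree of freedom 2.59 to 77.1). The labels do not say whether replicates came from separate animals or cultures. A p-value therefore sets a difference only against the spread between these samples, which may be technical. Xist and Y-linked RNA differed between WT IMQ 1 and 2, and between WT culture 3 and WT cultures 1 and 2. Those replicates did not come from the same source. Alternatives were DESeq2 1.42.0, RLE scaling, no count filter, a replicate block, only the compared groups, each library left out in turn and, added after seeing the data, a gene length offset and both first vehicle libraries left out.

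Replicate numbers were taken to pair samples where, with 3 pairs, every pair's deviations from the group means correlated above 0.1 over 10956 genes. Control and rPOSTN cultures gave 0.30, 0.30 and 0.56 (WT) and 0.38, 0.69 and 0.60 (KO), and vehicle ganglia of the 2 genotypes gave 0.89, 0.84 and 0.17. The pairing comes from these correlations, not from the labels. The members and all gene lists were chosen with earlier results of these data known. All 30 members are reported, with the called genes of each pathway list (at most 4 per comparison, those with the smallest p, of which a selection is given), defining markers of cell types, and Postn. Some well-known genes of the pathway are not reported here.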

Additional observations from a re-analysis of the deposited data

How the results depend on the processing

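Members called numbered 0 in every IMQ, genotype and rPOSTN comparison and for the myelin slope, under each alternative run. For cultures against ganglia they ranged from 22 to 25, and no called member changed its sign in any run. The members' median moved in 6 runs by more than the SD within groups of the members' mean log2 level, as described below. With a replicate block the members called were 0 in every treatment and genotype comparison, and 24 (WT) and 23 (KO) for cultures against ganglia. The paired fit moved the number of all genes called by rPOSTN in WT cultures from 0 to 8, none a member, and from 2 to 3 for KO against WT in vehicle ganglia. Only 2 pairs link IMQ and vehicle, correlating at 0.24 and 0.20 in WT and 0.75 and 0.75 in KO. Deviations of 2 IMQ libraries from their mean mirror each other, so the 2 correlations are not independent. The block moved all calls there from 224 to 280 and from 190 to 239. For the myelin slope the block gave 23 genes and DESeq2 7, against 0, with no member in either.

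Leaving out 1 library moved some members' medians. For KO against WT with vehicle they ran from −0.14 to −0.014 (without KO vehicle 2 and without KO vehicle 1). For IMQ in KO they ran from −0.13 without KO IMQ 2 to 0.11 without KO IMQ 1, so the sign depends on which library is left out (0.087 without KO vehicle 2), and the replicate block gave 0.0072. KO IMQ 2 had the steepest upward trend on gene length of the 22 libraries (0.16 log2 units per doubling). They ran from −0.13 to 0.10 for the IMQ interaction and from −0.17 to 0.0297 for KO against WT with IMQ (lowest without KO IMQ 2 in both), from −0.026 to 0.12 for the rPOSTN interaction (highest without KO rPOSTN 2) and from −0.80 to −0.64 for KO cultures against ganglia (lowest without KO vehicle 1). The length offset gave −0.05 for IMQ in KO. The cause of these shifts was not tested. Fads2 in KO cultures was called by DESeq2, RLE scaling, no filter, the length offset and without KO control culture 3, and Idi1 with no filter in both genotypes. Idi1 in both genotypes and Scd1 in WT cultures were also called without the first vehicle library of the genotype. A fit of the compared groups alone is the same fit for the interactions and rPOSTN comparisons and was not run again. The spread between libraries limits what could be detected: the members' median SE was 0.16 log2 units for IMQ in each genotype, 0.15 for KO against WT with vehicle, 0.12 for rPOSTN in KO cultures and 0.06 in WT cultures.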
